A study of Homo sapiens with 6 samples.

Results

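The HES and HEY transcription factors were examined together with the Notch receptors and the Notch ligand JAG1 in COV434 cells treated with 4-hydroxycyclophosphamide (4HC). The 10 members were chosen by gene symbol from the 16798 genes of the deposited table: JAG1, NOTCH1, NOTCH2, NOTCH3, HES1, HES2, HES4, HES6, HEY1 and HEY2. HES2 was selected from these same samples for its rise, so its values are given as a description without a test. The other 9 members were taken as its relatives and as the pathway above it, with earlier results of these data known.

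The study asked how cyclophosphamide (CTX), an alkylating chemotherapy drug that damages the ovary, acts on granulosa cells. It sequenced total RNA of 3 control and 3 treated samples of COV434, an immortalized line that the sample labels describe as granulosa cells. The control samples carried the genotype label WT and no treatment label. The treated samples were labelled CTX-Induced, with CTX also as their genotype, and had received 4HC, which CTX is converted to as its active form, at 15 µM for 24 h. Both groups were grown in DMEM with fetal bovine serum. The labels do not say whether the 3 samples of a group were separate cultures. The p-values below therefore set the difference between groups against a spread between samples that may be technical only.

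Notch receptors are cut by a furin-type protease on their way to the cell surface. Binding of a ligand such as JAG1 on a neighbouring cell leads to further cuts by an ADAM protease and γ-secretase, and the freed intracellular domain enters the nucleus, where it joins the DNA-binding protein RBPJ and a MAML coactivator. HES and HEY genes are the classical targets of that complex, and their products are basic helix-loop-helix repressors that recruit corepressors such as the TLE proteins. In the ovary, Notch signals pass between oocytes and granulosa cells while follicles form.

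Promoter sequences of 9 of the 10 members were found in RefSeq (GRCh38.p14), each reaching from 250 bases before to 50 bases after the gene's start. They were searched on both strands for the core of the RBPJ site, GTGGGAA or its reverse TTCCCAC. The core was present in 3 of the 9, HES1, HES4 and HEY2, and 6.25% of all 35116 RefSeq promoters of this length held it. The 120 bases before the start are shown for HES1 and HES4, which carry a core, and for HES2, the factor with the largest difference between the groups, which has none in its window. Capitals mark the RBPJ core, and each sequence is on the strand of its gene.
HES1, chr3:194136028-194136147, plus strand: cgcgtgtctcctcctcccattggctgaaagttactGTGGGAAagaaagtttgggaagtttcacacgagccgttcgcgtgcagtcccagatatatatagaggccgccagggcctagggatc
HES4, chr1:1000098-1000217, minus strand: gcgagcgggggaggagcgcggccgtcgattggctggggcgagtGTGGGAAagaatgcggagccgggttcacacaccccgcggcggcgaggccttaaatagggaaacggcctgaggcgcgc
HES2, chr1:6419920-6420039, minus strand: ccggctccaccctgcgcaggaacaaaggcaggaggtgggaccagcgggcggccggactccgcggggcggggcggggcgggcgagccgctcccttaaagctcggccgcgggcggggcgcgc

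Counted from the start of the gene, with negative positions before it, the first base of the RBPJ core lay at -85 in HES1 and at -77 in HES4, forward in both. HEY2 held the core in both directions, with first bases at -213 and -4. The sites that HES and HEY proteins themselves can bind were searched as well. The N-box CACNAG was present in 5 of the 9 promoters, those of HES1, HES2, NOTCH1, NOTCH2 and NOTCH3, against 38% of all promoters. The class C site CACGCG was found in 2, HES1 and JAG1, against 11.4% of all. The E-box CACGTG, held by 7.26% of promoters, and the p53 half-site, held by 6.63%, were found in 0 of the 9. These matches describe letters in the windows and were not tested as binding sites. The bounds that the deposited table gives for HES2 and HES4 reach further upstream than the RefSeq start used here.

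The 6 samples had similar depth. Expected counts, the estimated reads of each gene, summed to 16352898 to 16702316 per control sample and to 16133786 to 16383698 per 4HC sample. Of 14 granulosa cell markers, 12 were in the table and only AMH, INHA and HSD17B1 had enough counts for a test. The defining genes FOXL2, FSHR and CYP19A1 had 0 to 3 counts in every sample, so the granulosa label was not borne out by them. The summed TPM (transcript abundance scaled to transcript length and to a fixed sum per sample) of the granulosa markers was 24.2 to 33.4 in control and 28.0 to 29.3 in 4HC samples. INHBB, NR5A1, STAR, LHCGR and GATA4 also had 0 to 3 counts in every sample, and AMHR2 and CYP11A1 were not in the table. HSD17B1 and AMH made up most of the sum. HSD17B1 had a mean of 22.5 TPM in control and 22.2 TPM in 4HC, and AMH had 5.34 and 5.39 TPM. Of 5 endothelial and blood cell markers, which would mark other cells rich in Notch genes, the sum was at most 0.92 TPM in control and 1.28 TPM in 4HC samples. None of the granulosa, endothelial, blood or epithelial markers tested was called different. Of 6 neuroendocrine markers 5 were tested, and only NTS, which made up most of their sum, was called. Its mean was 8593 in control and 7389 in 4HC samples in CPM (counts normalized to library size by the TMM method; log2 fold change -0.22, edgeR adjusted p = 6.22e-09). Its part in the results below was not tested.

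The 4HC and control counts were compared by the quasi-likelihood test of edgeR over the 12368 genes that passed a filter on low counts, and genes were called at a Benjamini-Hochberg adjusted p under 0.05. Of the 10 members, 8 passed the filter and HES1 and HEY2 did not. Among the 7 tested members other than HES2, NOTCH1, NOTCH3, HES4 and HES6 were higher after 4HC, JAG1 and HEY1 were lower, and NOTCH2 was not called. Of all genes tested, 19.2% were called higher and 17.1% lower. The groups did not overlap for those same 6 members, 4 with 4HC above control and 2 below, which 23.4% and 21.9% of all genes showed. The median log2 fold change of the 7 was 0.31, against 0.005 over all genes tested, and the median absolute log2 fold change over all genes was 0.13. The members were chosen with earlier results known, so their contrast with all genes is not independent of these data.

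**Figure D1:**
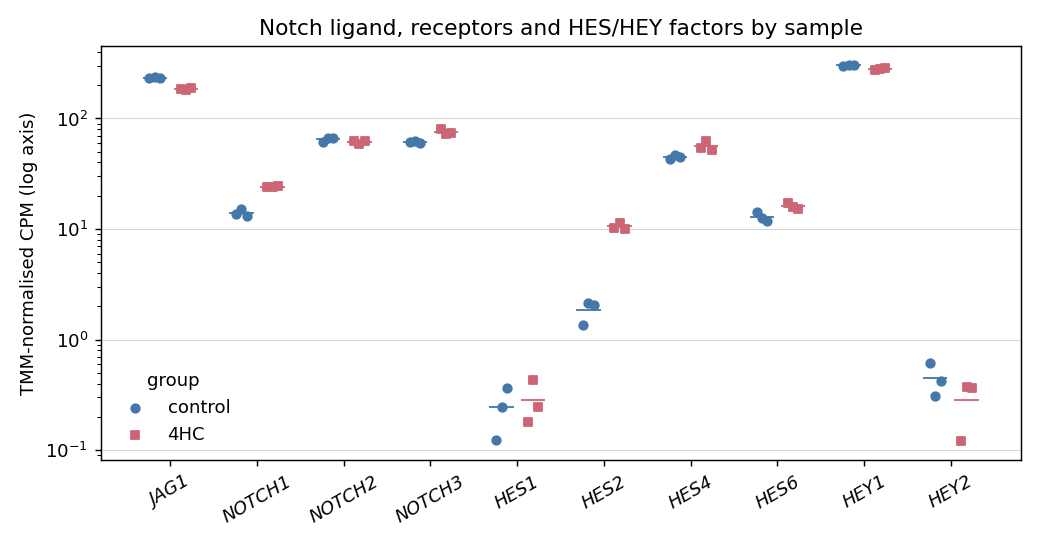
Normalized expression of the 10 members in each of the 6 samples, in CPM (TMM-normalized counts per library size) on a log axis, with control and 4HC samples as separate points. HEY1 sits near 300 CPM and HES1 and HEY2 below 1 CPM, and HES2 lies at 1.36 to 2.15 CPM in control and at 10.1 to 11.35 CPM in 4HC samples.

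JAG1, at chromosome 20, 10637684 to 10673999 (GRCh38, as in the deposited table; NCBI gene 182), encodes a membrane-bound ligand of the Notch receptors. It was measured at 232, 236 and 232 CPM in the control samples and at 183, 179.9 and 189 CPM in the 4HC samples. Every 4HC sample was below every control sample. The mean fell from 233 ± 2.04 CPM (SD, n = 3) to 184 ± 4.58 CPM, a log2 fold change of -0.34 (SE 0.0351, edgeR adjusted p = 1.51e-11). RNA was taken from whole cultures, so fewer cells of a type and less RNA per cell cannot be told apart, here and below. An antisense gene overlaps an exon of JAG1, and whether the counting used strand is not given in the sources used here.

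Of the receptors, NOTCH1 and NOTCH3 rose and NOTCH2 was not called. NOTCH1, at chromosome 9, 136494433 to 136546048 (NCBI gene 4851), was measured at 13.6, 15.1 and 13.03 CPM in control and at 24.2, 23.9 and 24.3 CPM in 4HC samples. The groups were well separated and the 4HC samples lay within 1 CPM of each other. The rise from 13.9 ± 1.09 to 24.1 ± 0.194 CPM was 1.73-fold, a log2 fold change of 0.79 (SE 0.0757, edgeR adjusted p = 1.58e-12), the largest among the members other than HES2.

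NOTCH3, at chromosome 19, 15159038 to 15200995 (NCBI gene 4854), a receptor best known from vascular smooth muscle, was measured at 61.3, 63.15 and 59.7 CPM in control and at 80.9, 73.1 and 73.9 CPM in 4HC samples. All 4HC samples were higher than all control samples, with replicate 1 the highest. The log2 fold change was 0.31 (SE 0.048, edgeR adjusted p = 7.53e-07).

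NOTCH2, at chromosome 1, 119848239 to 120069662 (NCBI gene 4853), the receptor described in granulosa cells of growing follicles, was measured at 61.1, 66.5 and 66.7 CPM in control and at 62.95, 58.95 and 63.2 CPM in 4HC samples. The groups overlapped, since control replicate 1 lay below 2 of the 4HC samples. The log2 fold change was -0.07 with a 95% confidence interval of -0.17 to 0.03 (edgeR adjusted p = 0.274). The counts of NOTCH2 are uncertain because the partial copies NOTCH2NLA, NOTCH2NLB and NOTCH2NLC, which were singled out after their values were seen, have near-identical exons. With the 3 copies added, the sum was 94.4, 100.1 and 99.85 CPM in control and 93.6, 91.1 and 93.8 CPM in 4HC samples. These groups did not overlap, and the log2 fold change of the sum was -0.08 (edgeR adjusted p = 0.136). Of the copies, NOTCH2NLC was itself called lower (-0.25, edgeR adjusted p = 0.0445). NOTCH2NLA (-0.085, adjusted p = 0.589) and NOTCH2NLB (0.018, adjusted p = 0.904) were not called.

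Per length, the summed receptor TPM was 23.6, 24.6 and 23.9 in control and 29.5, 26.8 and 28.1 in 4HC samples, with no overlap. NOTCH1 made up 10.7%, 10.6% and 9.53% of it in control and 14.6%, 15.5% and 15.5% in 4HC samples. The share of NOTCH2 was 36.5%, 37.8% and 39.4% in control and 30.05%, 30.55% and 31.4% in 4HC samples, lower in every 4HC sample. NOTCH3 held the largest share in both groups, 51.2% ± 1.07 in control and 53.35% ± 1.29 in 4HC samples (SD, n = 3), and its shares overlapped. NOTCH4, which did not pass the count filter, stayed at or below 1% of the receptor TPM. These shares are ratios within a sample and were not tested.

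HES2, at chromosome 1, 6412903 to 6424518 (NCBI gene 54626), is a less studied repressor of the HES family. Its expected counts were 22, 35 and 34 in control and 169, 184 and 165 in 4HC samples. In CPM these were 1.36, 2.15 and 2.05 in control and 10.2, 11.35 and 10.1 in 4HC samples, and the lowest 4HC sample was above the highest control sample. The mean was 1.85 ± 0.434 CPM in control and 10.55 ± 0.693 CPM after 4HC (SD, n = 3), a log2 fold change of 2.50 (SE 0.1535) or 5.67-fold. With limma on log2 values at a pseudocount of 1 it was 1.57 for TPM and 1.33 for FPKM. In the table, 8 of the 12368 genes tested had a larger log2 fold change. The member was chosen for this difference, so the values describe it and no p is given. A single transcript of HES2 was listed, and on the scale of TPM its mean went from 0.727 ± 0.171 to 4.13 ± 0.248.

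HES4, at chromosome 1, 995966 to 1001052 (NCBI gene 57801), is a HES gene of humans that lacks a mouse counterpart, and its promoter holds the RBPJ core shown above. It was measured at 43.4, 46.3 and 44.5 CPM in control and at 53.6, 62.96 and 52.3 CPM in 4HC samples. Every 4HC sample was above every control sample, and replicate 2 stood above the other 4HC samples. The log2 fold change was 0.33 (SE 0.0567, edgeR adjusted p = 4.53e-06), and 0.24 without 4HC replicate 2.

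HES6, at chromosome 2, 238238267 to 238240038 (NCBI gene 55502), encodes a family member that can antagonize HES1. Its CPM values were 14.3, 12.6 and 11.8 in control and 17.0, 15.97 and 15.1 in 4HC samples. The groups did not overlap, but the gap between control replicate 1 and 4HC replicate 3 was under 1 CPM. The log2 fold change was 0.32 (SE 0.0879, edgeR adjusted p = 0.00348).

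HES1, at chromosome 3, 194136148 to 194138732 (NCBI gene 3280), is the most widely used readout of Notch activity, and its promoter holds the RBPJ core shown above. Only 2, 4 and 6 counts were listed in control and 3, 7 and 4 in 4HC samples, or 12 and 14 in all. The groups overlapped and the gene did not pass the filter. Fitted without the filter, its log2 fold change was 0.21 with a 95% confidence interval of -1.04 to 1.46 (edgeR adjusted p = 0.855).

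The HEY genes are close relatives of the HES genes and best known from heart and vessel development. HEY1, at chromosome 8, 79764010 to 79767857 (NCBI gene 23462), was the most abundant member by TPM, and its CPM values were 299, 306 and 306 in control and 275, 280.0 and 285 in 4HC samples. All 4HC samples were below all control samples. The mean fell from 303.6 ± 3.94 to 280.1 ± 4.73 CPM (SD, n = 3), a small log2 fold change of -0.12 (SE 0.0331, edgeR adjusted p = 0.00423). HEY2, at chromosome 6, 125747639 to 125762243 (NCBI gene 23493), had 10, 5 and 7 counts in control and 2, 6 and 6 in 4HC samples. Its groups overlapped and it did not pass the filter. Without the filter its log2 fold change was -0.64, with an interval of -1.71 to 0.43 (edgeR adjusted p = 0.443).

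**Figure D2:**
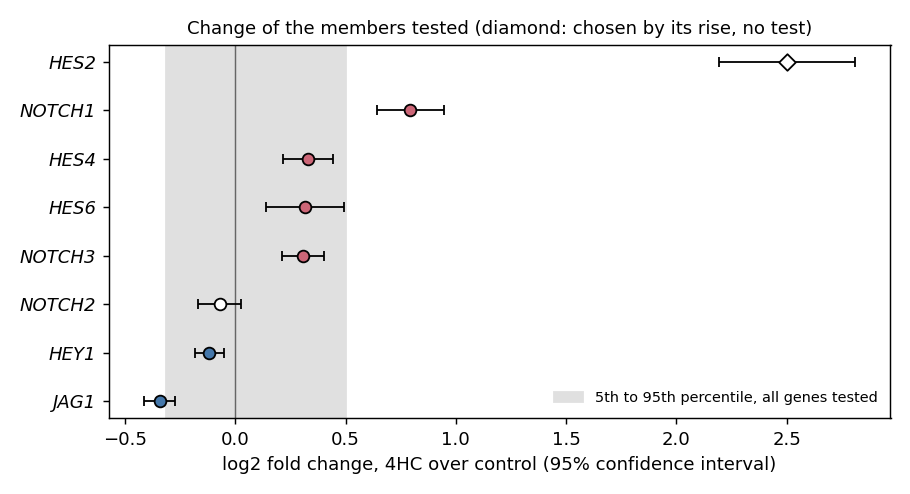
Log2 fold change of each member that passed the count filter, 4HC over control, with its 95% confidence interval from the edgeR fit on counts. HES1 and HEY2 did not pass and are not drawn. The interval of HES2 comes from the same samples it was chosen in, so it is a description and not a test. NOTCH1, NOTCH3, HES4 and HES6 lie above 0, JAG1 and HEY1 below it, the interval of NOTCH2 spans 0, and HES2, chosen for its rise, lies at 2.50.

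By TPM, the order of the mean levels was HEY1, HES4, JAG1, HES6, NOTCH3, NOTCH2, NOTCH1, HES2, HES1 and HEY2 in both groups. In control, neighbours in this order did not overlap except HES1, at 0.297 ± 0.145 TPM, and HEY2, at 0.277 ± 0.116 TPM. In 4HC samples HES1 and HEY2 overlapped again, and NOTCH1, at 4.27 ± 0.103 TPM, overlapped with HES2, at 4.13 ± 0.248 TPM. HEY1 led with 248.9 TPM in control and 228 TPM in 4HC, and HES4 followed with 93.9 and 120.4 TPM.

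The makeup of the HES and HEY transcripts differed between the groups in its leading genes, as a description without a test. Their summed TPM, with HES7 and HEYL included, was 363, 369 and 371 in control and 375, 394 and 376 in 4HC samples. HEY1 made up 67.6%, 67.4% and 67.98% of it in control and 60.3%, 57.5% and 61.7% in 4HC samples, lower in every 4HC sample. HES4 made up 24.99%, 26.0% and 25.6% in control and 30.5%, 34.1% and 29.98% in 4HC samples, higher in every 4HC sample. HES2 went from 0.197% ± 0.0447 to 1.08% ± 0.0356 (SD, n = 3), so its transcripts were a small part of the pool in both groups. The share of HES1 was at most 0.132% in any sample.

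**Figure D3:**
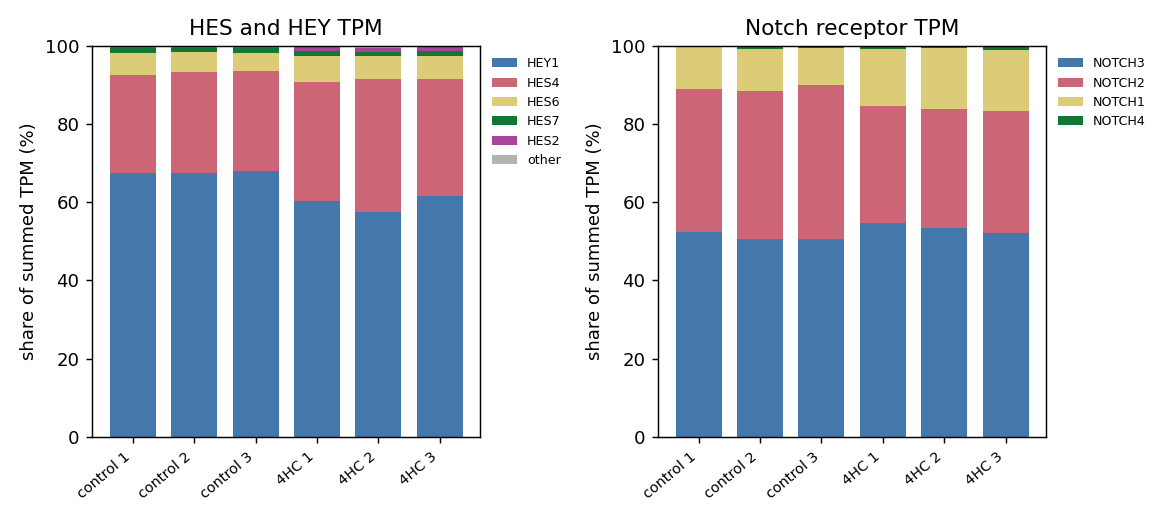
Stacked shares, in percent of summed TPM, of the HES and HEY genes and of the Notch receptors in each of the 6 samples. HEY1 takes a smaller share and HES4 a larger share of the HES and HEY transcripts in the 4HC samples, and NOTCH1 takes a larger and NOTCH2 a smaller share of the receptors.

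The deposited transcript values divide the reads of a gene between transcripts with shared exons, so they are less certain than gene values and were not tested. HES4 had 3 transcripts, and the share of NM_021170 in its expected counts was 19.6%, 23.9% and 22.4% in control and 26.3%, 27.3% and 26.4% in 4HC samples, with no overlap. The most abundant HES4 transcript, NM_001142467, rose in expected counts from 402 ± 11.4 to 494 ± 44.6 (SD, n = 3), while its share overlapped. For HEY1 the minor transcript NM_001040708 held 14.6%, 11.9% and 14.5% of the counts in control and 19.3%, 16.05% and 17.4% in 4HC samples. The expected counts of this HEY1 transcript overlapped between the groups, while those of the major transcript NM_012258 were lower in every 4HC sample.

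NOTCH3 counts were divided between NM_000435 and a predicted transcript. NM_000435 held 27.02%, 36.4% and 28.1% in control and 40.2%, 42.1% and 39.0% in 4HC samples, and its expected counts were 307 ± 57.7 in control and 503 ± 34.0 after 4HC (SD, n = 3). The predicted NOTCH3 transcript overlapped between the groups in expected counts. For NOTCH1 the split was unstable, since NM_017617 held 38.3% in control replicate 1 but 80.2% and 80.1% in the other control samples, and 68.6%, 72.7% and 56.8% in 4HC samples. JAG1, HES1 and HES2 had a single transcript, and HES6 was almost wholly NM_018645.

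**Figure D4:**
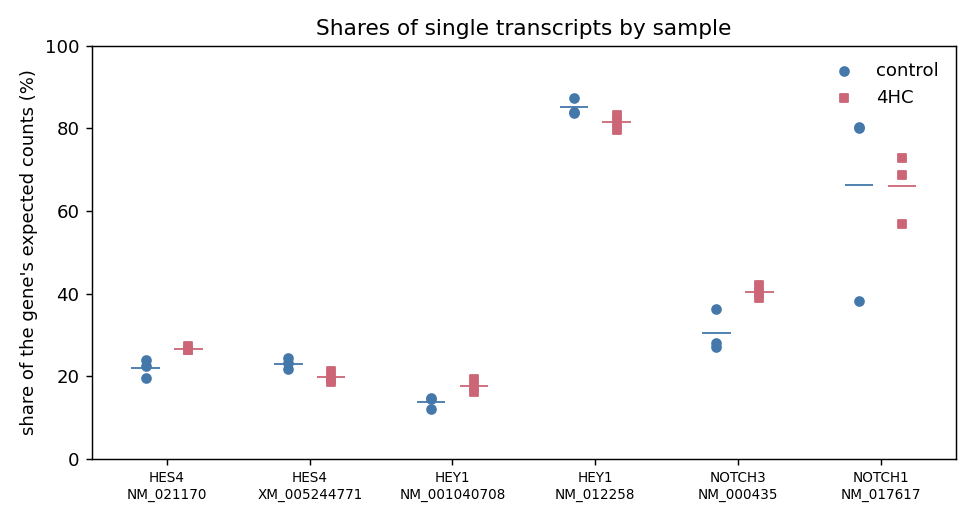
Share of each listed transcript in the expected counts of its gene, in percent, for each control and 4HC sample. NM_021170 of HES4, NM_001040708 of HEY1 and NM_000435 of NOTCH3 lie higher in every 4HC sample than in any control sample. NM_017617 of NOTCH1 scatters within the control group.

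The wider pathway was described with 9 lists of genes by role, 93 genes in all, of which 86 were in the table and 67 were tested. Of these, 15 were higher and 14 lower after 4HC and 38 were not called, with a median log2 fold change of -0.002. Among all genes tested 36.4% were called, against 43.3% of these 67. With library size as the only scaling the split of the 67 was 18 higher and 9 lower. Over all genes this scaling gave 2725 higher and 1735 lower, against 2379 and 2118 with TMM. Without control replicate 2 only 8 of the 67 were called lower, and 1946 of all genes.

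Among the other ligands, 3 of 6 were tested and JAG2 was the only gene called, or 33.3% against 36.4% of all genes tested. JAG2, a second Jagged ligand, was measured at 23.3, 25.1 and 23.2 CPM in control and at 42.8, 36.5 and 36.5 CPM in 4HC samples, and the groups did not overlap. Its log2 fold change was 0.69 (SE 0.065, edgeR adjusted p = 8.76e-13), opposite in sign to that of JAG1. DLL1 and DLL4, ligands of the Delta type, did not pass the filter. Of the remaining family genes, HES7 and HEYL were tested and neither was called. HEYL, at 1.24 CPM in control and 1.57 CPM in 4HC, had a log2 fold change of 0.33 (edgeR adjusted p = 0.384), and -0.19 without 4HC replicate 2.

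Of the 9 genes for receptor cleavage, all were tested, with 2 higher, 2 lower and 5 not called. Thus 44.4% were called, against 36.4% of all genes tested. The values of FURIN, which makes the first cut, were 88.2 CPM in control and 97.8 CPM in 4HC (log2 fold change 0.15, edgeR adjusted p = 0.00419). APH1A, a γ-secretase subunit, was called higher (0.11, adjusted p = 0.019) and ADAM17, an ADAM protease, lower (-0.13, adjusted p = 0.0123), and both calls were lost when single libraries were left out. That of APH1A was lost without control replicate 1 (adjusted p = 0.0543), control replicate 3 (0.125), 4HC replicate 1 (0.0639) or 4HC replicate 2 (0.0899). That of ADAM17 was lost without control replicate 1 (adjusted p = 0.0656), control replicate 3 (0.0652) or 4HC replicate 2 (0.0598).

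Of the 8 genes that add sugars to the receptors, 6 were tested, with 2 higher, 2 lower and 2 not called. The share called was 66.7%, against 36.4% of all genes tested. GXYLT1 and XXYLT1, xylosyltransferases that extend the same sugar chain, moved in opposite directions, from 72.7 to 94.2 CPM (log2 fold change 0.37) and from 51.5 to 43.0 CPM (-0.26). RFNG, a Fringe enzyme, rose from 31.6 to 39.8 CPM (0.33, edgeR adjusted p = 2.27e-05).

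Endocytosis and ubiquitination genes had 13 of 15 tested, with 5 higher, 1 lower and 7 not called, and a median log2 fold change of 0.12. The share called was 46.2%, against 36.4% of all genes tested. FBXW7 encodes the F-box protein that marks the Notch intracellular domain for degradation. It was measured at 25.4, 25.85 and 23.6 CPM in control and at 37.9, 39.8 and 41.2 CPM in 4HC samples. Every 4HC sample was higher, with a log2 fold change of 0.67 (SE 0.0608, edgeR adjusted p = 3.65e-13). MIB2 and NEURL1B, ubiquitin ligases that act on ligands, rose from 29.1 to 42.3 CPM (0.54, adjusted p = 8.63e-11) and from 10.1 to 13.6 CPM (0.43, adjusted p = 0.000277).

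In the RBPJ activator complex 8 of 9 genes were tested, with 2 higher, 2 lower and 4 not called. This is 50% called, against 36.4% of all genes tested. RBPJ itself, at 108.4 ± 4.24 CPM in control and 115.7 ± 2.26 CPM after 4HC (SD, n = 3), was not called (log2 fold change 0.09, edgeR adjusted p = 0.0672). The coactivator MAML2 was measured at 176, 171.5 and 174 CPM in control and at 122, 121 and 133 CPM in 4HC samples. It was lower in every 4HC sample, with a log2 fold change of -0.47 (SE 0.0392, adjusted p = 1.16e-14), the largest fall in these lists. The histone acetyltransferases KAT2B and EP300 moved in opposite directions, by 0.43 (adjusted p = 9.58e-08) and -0.20 (adjusted p = 9.98e-05).

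All 15 corepressor genes were tested, with 0 higher, 4 lower and 11 not called, and a median log2 fold change of -0.10. The share called was 26.7%, below the 36.4% of all genes tested, and the 4 lower genes are to be read against the 17.1% of all genes called lower. TLE3, a Groucho-family corepressor that HES proteins bind, was measured at 87.9, 94.2 and 85.97 CPM in control and at 63.2, 66.05 and 65.1 CPM in 4HC samples. The groups did not overlap, and the log2 fold change was -0.46 (SE 0.0459, edgeR adjusted p = 5.19e-12). HDAC2, a histone deacetylase, fell from 232 to 198 CPM (-0.23, adjusted p = 9.24e-07). KDM5A, a histone demethylase, was called lower (-0.12, adjusted p = 0.0376), but not without control replicate 1 (0.107), control replicate 2 (0.0912), 4HC replicate 2 (0.0922) or 4HC replicate 3 (0.0804).

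Of 6 other Notch target genes 3 were tested and only MYC was called, or 33.3% against 36.4% of all genes tested. MYC, a growth regulator that Notch activates in some cell types, was measured at 167, 171 and 172 CPM in control and at 141, 137 and 139.7 CPM in 4HC samples, lower in each 4HC sample (log2 fold change -0.29, edgeR adjusted p = 9.25e-09). NRARP, a feedback inhibitor of the Notch complex, was at 7.81 CPM in control and 8.31 CPM in 4HC (0.09, adjusted p = 0.581). Among proneural factors and their helix-loop-helix partners 8 of 19 were tested, with 3 higher, 2 lower and 3 not called. Here 62.5% were called, against 36.4% of all genes tested. ID1 and ID2, which bind helix-loop-helix proteins without binding DNA, rose from 33.8 to 44.97 CPM (0.41, adjusted p = 6.34e-08) and from 72.6 to 85.6 CPM (0.24, adjusted p = 2.96e-05). ID4 was called lower (-0.18, adjusted p = 0.0157), but not without control replicate 2 (0.0602) or 4HC replicate 1 (0.0634).

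**Figure D5:**
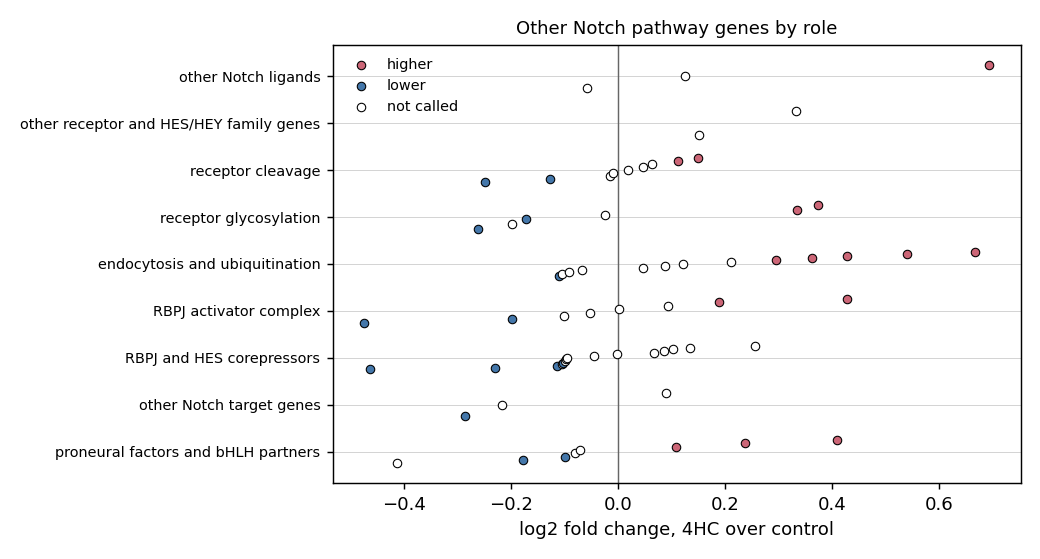
Log2 fold change, 4HC over control, of each tested pathway gene, grouped by role, with called genes marked. Called genes lie on both sides of 0, 15 above and 14 below among the 67 tested, with JAG2 at 0.69 and FBXW7 at 0.67 the highest and MAML2 at -0.47 and TLE3 at -0.46 the lowest.

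The genes whose pattern over the 6 samples was closest to that of HES2 were found by the Euclidean distance of log2(CPM + 1), centred on the control mean. They were GDF15, a stress-induced cytokine, at a distance of 0.235, CDKN1A, a p53-induced inhibitor of the cell cycle, at 0.507, and SULF2, a sulfatase, at 0.553. The CPM of GDF15 was 6.71 in control and 29.2 in 4HC, that of CDKN1A was 225 and 783, and that of SULF2 was 14.0 and 48.9. HES2 was chosen for its rise in these same samples, so the distance mostly returns genes with a similar difference between the groups. A link between HES2 and these genes was not tested. The pseudocount affects which genes are closest. With 0.1 in place of 1 the closest genes were PLXNB3, BTBD19 and GDF15, at distances of 0.632, 0.665 and 0.674.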

How the data were processed

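Total RNA of 3 control and 3 4HC samples of COV434 cells was sequenced. The authors filtered reads with SOAPnuke and used the Dr. Tom system. The submitters' processing notes list HISAT2, Bowtie2, RSEM 1.3.1, DESeq2 1.4.5 and GRCh38.p13, with no role given. The authors deposited an expected count per gene and transcript without normalization, of which 85.5% of gene values were whole, for 16798 genes and 79213 transcripts. TPM values, as deposited, are relative to transcript length with a fixed total in every sample. FPKM values, as deposited, are relative to gene length and to library size. Group means and the authors' own DESeq2 fold changes with p- and q-values were also in the table and were not used. A second gene table held identical values in 27 columns and was not used.

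Expected counts were rounded and tested with edgeR 4.0.16 (R 4.3.3), with TMM scaling, filterByExpr, a quasi-likelihood test of condition without covariates, and Benjamini-Hochberg adjustment over 12368 genes. The biological coefficient of variation was 0.0277. CPM values are TMM-normalized. An exact permutation test of 3 against 3 samples cannot give a p below 0.1. Total expected counts per sample were 16133786 to 16702316. The scripts were tested on simulated data. Alternatives were DESeq2 1.42.0, its size factors, library size only, other filters, limma 3.58.1 on log2 TPM or FPKM, counts summed over transcripts, a replicate block, each sample left out and, added after seeing the data, NOTCH2NL copies summed with NOTCH2.

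The members and gene lists were chosen with earlier results of these data known. Every member was named, and from each role list up to 3 called genes with the largest change and no overlap, or the 1 with the largest change where none passed. RBPJ, HES7, NRARP and the NOTCH2NL copies were named outside this rule, after their values were seen. Coordinates are those of the deposited table. RefSeq promoters (GRCh38.p14) were searched for motifs. The promoter of HEY1 was not used here. DLK1, HES3, HES5, HELT, NEUROG1, NEUROG2 and NEUROG3 were on the lists but were not found by symbol in the deposited table.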

Additional observations from a re-analysis of the deposited data

How the results depend on the processing

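Of the 7 tested members other than HES2, 4 were called higher and 2 lower, and these numbers were the same under nearly all alternatives. The exception was the study's criteria of a 2-fold change with an unadjusted p under 0.05, which left 0 higher and 0 lower. These criteria were applied here to the edgeR fit, whereas the study used DESeq2, so the numbers are not those of the study's own procedure. The same criteria left 0 higher and 0 lower pathway genes, and 126 higher and 16 lower of all genes against 2379 and 2118. Pathway genes called lower, 14 in the edgeR comparison, numbered 9 with DESeq2, 9 with library size as the only scaling, 7 with limma on log2 FPKM at a pseudocount of 1 and 7 at 0.1. With each sample left out in turn they numbered 8 to 15. All genes called lower, 2118 in the edgeR comparison, numbered 1637 with DESeq2 and 1735 with library size as the only scaling. With limma on log2 FPKM they numbered 1343 and 1345 at the pseudocounts of 1 and 0.1. With each sample left out in turn, all genes called lower numbered 1680 to 1979. The log2 fold change of HES2 was 1.57 with limma on log2 TPM and 1.33 on log2 FPKM, both at a pseudocount of 1, which lowers the change of genes near 1. HEYL, at 0.33, ranged from -0.19 (edgeR adjusted p = 0.709, without 4HC replicate 2) to 0.63 on the log2 scale as single samples were left out. Deviations of same-numbered samples correlated at -0.025, 0.046 and 0.065. With 3 samples per group, these values cannot decide whether samples were paired by number. A replicate block gave 4 higher and 2 lower members, 15 higher and 12 lower pathway genes, and 2259 higher and 1954 lower of all genes. Samples did not all correlate best with their own number. ADAM17, APH1A, KDM5A and ID4 lost their calls under 5, 6, 10 and 5 alternatives, and the cause was not tested. At 16133786 to 16702316 counts per sample, HES1 and HEY2 had 2 to 10 counts in each sample and did not pass the filter.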
